A study of Mus musculus with 4 samples.

Results

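Foxp3, its Runx and Foxp partner factors and 3 enzymes that modify Foxp3 protein were followed as a set of 10 genes, of 50600 gene identifiers in the count files. The genes were Foxp3, Runx1, Runx2, Runx3, Cbfb, Foxp1, Foxp4, Kat5, Usp7 and Stub1, taken by symbol, and each matched 1 identifier. The libraries were RNA-seq of regulatory T primary cells from mouse strain C57BL/6NJ, in 1 group of 4 biological replicates with no untreated or other comparison group. A linked protocol describes differentiation of CD4 T cells, and alignment names in the headers read activated and 72h. They gave no age or sex and named the same donor identifier for all replicates. Nor did they say whether each culture came from its own animal. The p-values therefore hold only for these libraries, and the spread between them may be technical in part. The assay was labelled total RNA-seq while its linked library protocol was for poly(A)+ RNA.

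Foxp3 is the forkhead transcription factor that defines regulatory T cells, the CD4 subset that restrains immune responses. It binds DNA together with other nuclear factors, among them Runx1, and its protein is made more or less stable by acetylation and ubiquitination. Runx proteins bind DNA through the Runt domain and need Cbfb, a subunit that does not bind DNA itself, for stable binding. Foxp1 and Foxp4 are forkhead paralogues that can form dimers within the Foxp family.

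The start sites of the family genes bear on how their counts are read, because a gene count adds up all starts. RefSeq on GRCm38.p6, which shares its coordinates with mm10, listed 16 promoter windows for the 10 genes, with more than 1 for Foxp3, Foxp1, Runx1, Runx3 and Kat5. In the 250 bases before each start, the core Runx motif TGTGGT (or ACCACA on the opposite strand) was found in 2 of the 16 windows, those of Runx2 and of the upstream start of Runx3, against 14.0% of all 32851 windows. The upstream Runx3 window held it 2 times, with the first bases 134 and 126 bases before the start, and the Runx2 window 1 time, 80 bases before the start. Neither Foxp3 window held these letters, which says only that they are not in these windows. The 3 windows below are shown 5′ to 3′ on the gene's strand, to set the Foxp3 start beside the Runx windows with a match, and the capitals mark the Runx motif.

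Foxp3 (chrX:7579426-7579675, plus strand): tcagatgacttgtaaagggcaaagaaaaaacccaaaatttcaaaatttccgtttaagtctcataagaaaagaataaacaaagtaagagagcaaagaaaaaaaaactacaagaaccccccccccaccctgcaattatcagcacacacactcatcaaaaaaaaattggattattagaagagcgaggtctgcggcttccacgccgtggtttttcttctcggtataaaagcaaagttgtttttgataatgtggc
Runx3, upstream start (chr4:135120395-135120644, plus strand): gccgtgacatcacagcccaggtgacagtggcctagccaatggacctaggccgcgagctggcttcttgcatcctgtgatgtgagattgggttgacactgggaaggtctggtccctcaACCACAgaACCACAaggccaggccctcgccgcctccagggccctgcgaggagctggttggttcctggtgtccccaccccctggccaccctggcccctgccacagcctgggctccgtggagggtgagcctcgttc
Runx2 (chr17:44814628-44814877, minus strand): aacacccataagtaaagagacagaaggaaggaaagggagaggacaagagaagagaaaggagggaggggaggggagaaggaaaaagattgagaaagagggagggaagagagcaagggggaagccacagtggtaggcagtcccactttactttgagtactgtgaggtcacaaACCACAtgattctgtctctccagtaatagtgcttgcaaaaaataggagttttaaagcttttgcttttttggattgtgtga

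The Foxp3 window shown held 37.6% G and C, at percentile 8.47 of all windows, and the window of its other start (chrX:7580233-7580482) 46%, at percentile 28.4. The upstream Runx3 window was at 65.2% and the Runx2 window at 44.8%. The forkhead motif TGTTTAC (or GTAAACA) was in none of the 16 windows, against 3.17% of all windows. The Ets motif CCGGAAG (or CTTCCGG) was in the Stub1 window, against 6.91% of all windows. The cyclic AMP response half-site TGACGT (or ACGTCA) was in 1 Foxp1 and 1 Kat5 window, against 6.47% of all windows. No matches overlapped.

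The libraries of replicates 1 to 4 held between 51460018 and 121477975 counts on genes. T cell markers were present, with all 6 of them at 100 TPM (counts divided by exon length, scaled to the same total in every library) or more in every library and a summed level of 3310 to 3488 TPM, led by the receptor chain gene Trac (1182 ± 84.8 TPM; SD, n = 4). The CD8 coreceptor gene Cd8a was at 0.243 ± 0.0456 TPM and its partner Cd8b1 at 11.5 ± 2.16 TPM, and no B cell, natural killer or erythroid marker reached 1 TPM in every library. The macrophage marker Adgre1 was at 2.55 ± 0.860 TPM, while Lyz2 had 0 counts. Of 3 stromal and epithelial markers, 2 reached 1 TPM in every library, Pecam1 at 9.02 ± 0.756 TPM and Epcam at 3.12 ± 0.558 TPM, and their part in the results was not tested. The libraries fell apart in sex-linked genes: Xist was at 173, 199, 0.592 and 0.758 TPM and the Y-linked Eif2s3y at 0.0874, 0.133, 46.7 and 62.7 TPM in replicates 1 to 4. Under a single donor identifier, the libraries therefore cannot all come from 1 animal, and each SD given here spans both kinds of library. In bulk RNA, more cells of a type and more RNA per cell cannot be told apart.

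Foxp3 (ENSMUSG00000039521.12, mm10 chromosome X, 7579676 to 7595243, plus strand) was the most abundant of the 10 genes by mean TPM. Replicates 1 to 4 held Foxp3 at 471, 408, 449.9 and 463 TPM, values that rest on 67138, 29442, 39547 and 27866 counts. Replicate 2 was the lowest, and the highest library exceeded it 1.15-fold. The mean of 448 ± 27.8 TPM (SD, n = 4) lay at percentile 98.6 of protein-coding genes, and between 98.4 and 98.7 in the separate libraries. How far Foxp3 leads depends on the length used. With the longest coding length in place of the merged exons, Foxp3 was at 473 ± 30.8 TPM and Cbfb next at 371 ± 41.7 TPM. Foxp3 is X-linked, and its levels in the libraries high in Xist (471 and 408 TPM) lay on either side of those in the libraries low in it (449.9 and 463 TPM).

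Within the Foxp3 gene, 3 other genes shared exon bases with it. The noncoding gene Flicr, on the same strand, shared 267 bases, or 6.69% of the merged exons of Foxp3, and was at 3.20 TPM. Ccdc22 and Gm36995 lie on the opposite strand, shared 590 and 373 bases, and were at 7.60 and 0.295 TPM. Counting was by strand and the headers show no option that counts a fragment on more than 1 gene. Fragments in bases shared with Flicr could therefore be missing from both genes.

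**Figure D1:**
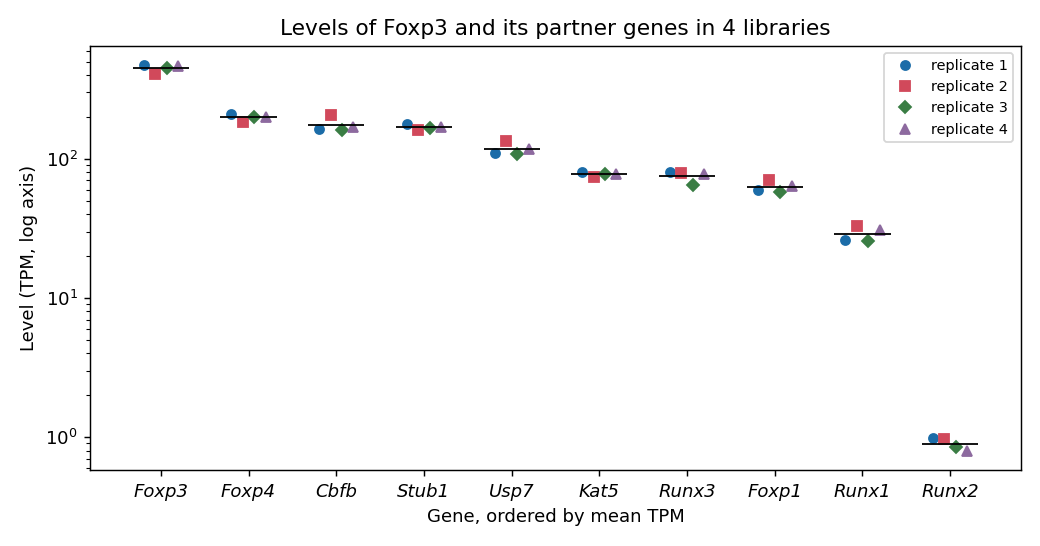
Level of each of the 10 genes in TPM on a log axis, ordered by the mean (black line), with 1 point per library. Foxp3 lies above all others in every library and Runx2 below all others, while replicate 2 (squares) is the lowest library for Foxp3, Foxp4, Kat5 and Stub1 and the highest for Cbfb, Usp7, Foxp1 and Runx1.

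Among the Foxp paralogues, Foxp4 (mm10 chromosome 17, 47867133 to 47924645) was at 211, 184, 200.5 and 200.8 TPM in replicates 1 to 4. Its mean of 199 ± 11.1 TPM (SD, n = 4) was at percentile 95.9 of protein-coding genes. Foxp1 (chromosome 6, 98925338 to 99522721), known for keeping T cells in a quiescent state, was at 59.4, 70.6, 57.5 and 63.7 TPM. Foxp2 was close to 0, with 18, 4, 6 and 12 counts in replicates 1 to 4.

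Foxp3 kept a nearly fixed proportion to Foxp4. The ratio of their TPM was 2.23, 2.22, 2.24 and 2.31 in replicates 1 to 4, and their log2 difference of 1.17 ± 0.02 had the smallest SD of the 16 pairs of genes compared. This was not particular to the pair, since Kat5 with Stub1 had an SD of 0.03 and Foxp3 with Stub1 and with Kat5 0.05. Like Foxp3 and Foxp4, Kat5 and Stub1 were lowest in replicate 2 and are rich in G and C. The part of GC content in these SDs was not tested. The ratio of Foxp3 to Foxp1 moved more, from 5.78 in replicate 2 to 7.93 in replicate 1. Of the summed TPM of Foxp1 to Foxp4, Foxp3 held 63.1% ± 0.994 (SD, n = 4), Foxp4 28.0% ± 0.416 and Foxp1 8.88% ± 1.22. The share of Foxp1 depends on its length: GENCODE M13 merges its exons to 13751 bases, while its longest coding transcript in GENCODE M21 has 7177 bases. By CPM (counts scaled to the library total, with no length term) Foxp1 held 23.8% ± 2.69 and Foxp3 49.2% ± 1.84.

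The Runx genes lay far apart. Runx3 (chromosome 4, 135120652 to 135177990), the factor that drives cytotoxic lineage genes and silences Cd4 in CD8 T cells, was at 80.6, 79.4, 64.9 and 77.2 TPM in replicates 1 to 4. Replicate 3 was its lowest library, and the other three lay between 77.2 and 80.6 TPM. Runx1 (chromosome 16, 92601466 to 92826149), which acts in blood stem cells and in T cells and binds Foxp3, was at 26.2, 33.1, 25.7 and 30.8 TPM. Runx2 (chromosome 17, 44495987 to 44814797), best known from bone formation, was at 0.978, 0.964, 0.842 and 0.795 TPM, from 309, 154, 164 and 106 counts. Its mean lay at percentile 49.4 of all protein-coding genes, and it was the only one of the 10 genes under 10 TPM.

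By TPM, Runx3 exceeded Runx1 in all 4 libraries, with ratios of 3.08, 2.40, 2.52 and 2.50, and held 71.7% ± 2.13 (SD, n = 4) of the summed Runx TPM, against 27.5% ± 2.16 for Runx1 and 0.852% ± 0.0869 for Runx2. Without the length term the lead of Runx3 shrank: the ratio of CPM was 1.30 in replicate 1, but 1.02, 1.07 and 1.06 in replicates 2 to 4. The merged exons of Runx1 span 11827 bases and its longest coding transcript 5861 bases, so how far Runx3 transcripts outnumber those of Runx1 depends on which transcripts the cells made, which gene counts do not give.

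**Figure D2:**
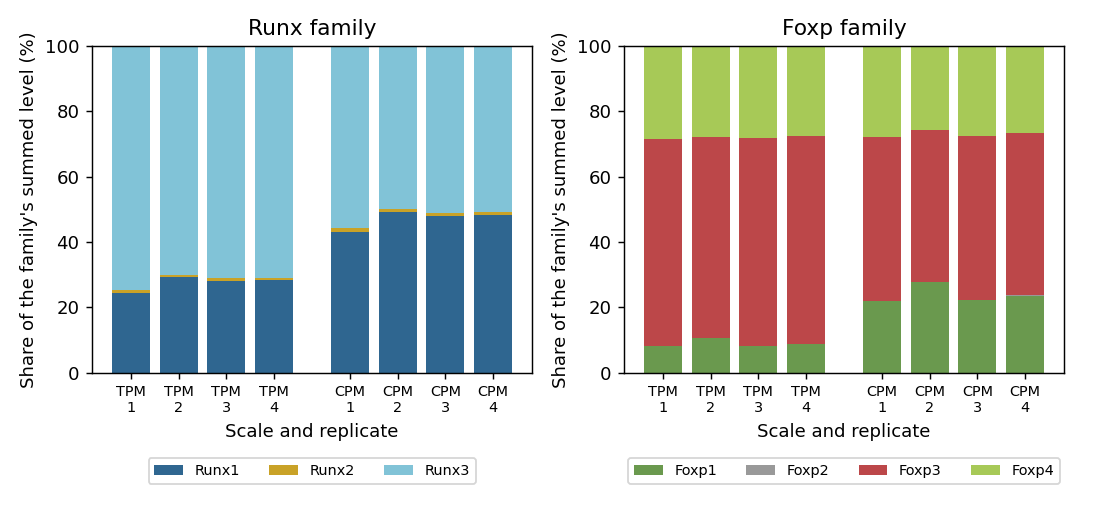
Share of each gene in the summed level of its family, per library, with and without length normalization. Runx3 holds 70.0% to 74.8% of the Runx TPM but 49.8% to 55.9% of the Runx CPM, and Foxp3 holds 61.6% to 63.6% of the Foxp TPM and 46.5% to 50.3% of the Foxp CPM.

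Cbfb (chromosome 8, 105170674 to 105217989), the common partner of all Runx proteins, was at 164, 206, 162 and 171 TPM in replicates 1 to 4. Replicate 2 was high, and the other three lay close together. The level of Cbfb was above the summed level of the 3 Runx genes in every library, with ratios of 1.52, 1.82, 1.77 and 1.57. On the CPM scale the order turned, with Cbfb below the Runx sum by a log2 difference of -0.25 ± 0.11 (SD, n = 4). Foxp3 exceeded Cbfb by 1.36 ± 0.25 on the log2 TPM scale and the summed Runx genes 4.29-fold ± 0.542, least in replicate 2 and most in replicate 3, at 4.92-fold. With the longest coding length as the length, the log2 lead of Foxp3 over Cbfb was only 0.36 ± 0.25.

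The 3 enzyme genes stood between these. Stub1 (chromosome 17, 25830636 to 25833361) encodes a ubiquitin ligase that marks Foxp3 protein for degradation, and was at 177, 162, 165 and 170.2 TPM in replicates 1 to 4. Usp7 (chromosome 16, 8689595 to 8792308) encodes a deubiquitinase that protects Foxp3 protein, and was at 111, 135, 109 and 118 TPM. Kat5 (chromosome 19, 5603017 to 5610094) encodes the acetyltransferase Tip60, which acetylates Foxp3 protein, and was at 79.8, 74.5, 78.2 and 77.8 TPM. Kat5 was the steadiest of the 10 genes, with a coefficient of variation of 2.87%, followed by Stub1 at 3.91%.

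Stub1 exceeded Usp7 in all 4 libraries by TPM, with ratios of 1.60, 1.20, 1.52 and 1.44. This order too rests on length, since Usp7 exceeded Stub1 by a log2 difference of 1.70 ± 0.18 (SD, n = 4) by CPM and by 0.30 ± 0.18 when the longest coding transcript was taken as the length. Antisense neighbours overlap both Stub1 and Kat5. Jmjd8, at 44.7 TPM, shared 684 of the 1672 exon bases of Stub1, and Rnaseh2c, at 97.7 TPM, shared 423 of the 2008 exon bases of Kat5, but fragments were counted by strand.

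Of the 10 genes, 5 were at 100 TPM or more in every library (Foxp3, Foxp4, Cbfb, Stub1 and Usp7), against a background of 8.84% of protein-coding genes and 3.87% of all genes. At 10 TPM, 9 of the 10 genes passed in every library, against 37.3% of protein-coding and 16.6% of all genes. The same 9 passed at 1 TPM, against 48.9% of protein-coding and 23.7% of all genes. The order by mean TPM was Foxp3, Foxp4, Cbfb, Stub1, Usp7, Kat5, Runx3, Foxp1, Runx1 and Runx2, and 6 of the 9 neighbouring pairs kept it in 4 of 4 libraries. Foxp4 lay above Cbfb in 3 of 4 libraries (log2 difference 0.19 ± 0.24; SD, n = 4), Cbfb above Stub1 in 2 (0.05 ± 0.20) and Kat5 above Runx3 in 2 (0.04 ± 0.16). By TPM on merged exons, these neighbours thus did not differ beyond their spread. The order itself rests on length: by CPM it was Foxp3, Foxp4, Usp7, Foxp1, Cbfb, Runx3, Runx1, Stub1, Kat5 and Runx2. Foxp1 then lay above Runx3 (254 ± 20.3 against 111 ± 9.54 CPM; SD, n = 4) and Usp7 above Stub1.

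The 16 pairs set within and between the families each had the same sign in all 4 libraries. The exact two-sided sign-flip test gave p = 0.125 for every pair, before and after Benjamini-Hochberg adjustment over the 16 pairs, which is the smallest p that 4 libraries allow. The threshold of 0.05 could therefore not be reached. The largest difference was that of Runx3 over Runx2, where Runx2 lay lower by a log2 difference of -6.25 ± 0.14, and the smallest that of Stub1 over Usp7, with Usp7 lower by -0.51 ± 0.18.

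**Figure D3:**
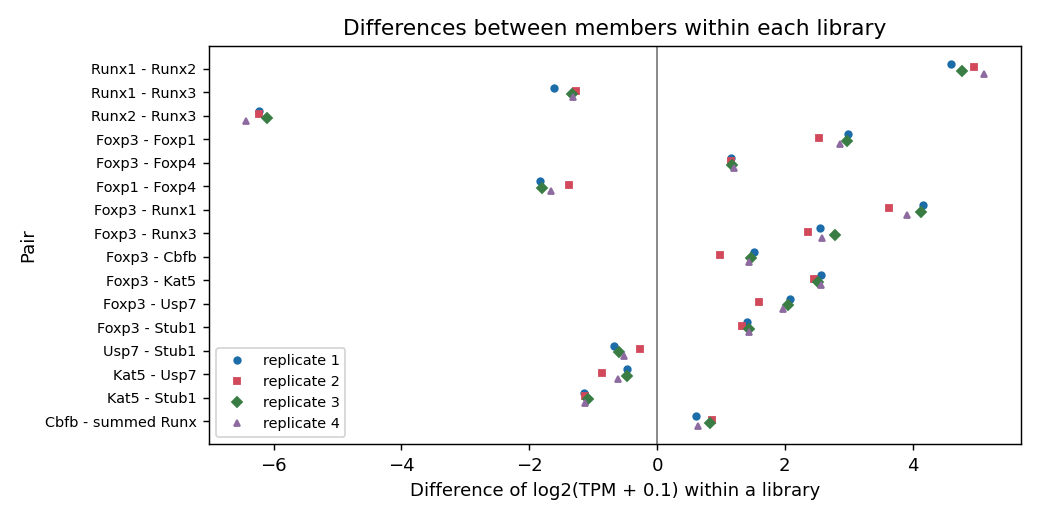
Difference of log2(TPM + 0.1) between the genes of each pair, with 1 point per library. All 4 points of each pair lie on the same side of 0, and replicate 2 (squares) stands off from the others in the pairs of Foxp3 with Cbfb, Usp7, Foxp1 and Runx1 but not in the pair of Foxp3 with Foxp4 (1.15 in replicate 2 against 1.16 to 1.21).

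The spread between libraries was then tested over all genes, as the quasi-likelihood dispersion of each gene against genes of like abundance. With 4 libraries, a gene that is not called is not shown to be steady. None of the 10 genes was called (edgeR, adjusted p of 0.965 to 0.999), against a background of 0.00734% of the 13625 genes tested, which was Xist alone. An unadjusted p under 0.05 was found for 0 of the 10, against 641 of the 13625 genes. Of 5 sex-linked genes only 1, Xist, was tested, because the filter on low counts left out the Y-linked genes, Eif2s3y among them. Xist ran from 0.592 to 199 TPM, while in Runx1, the widest of the 10 genes, the highest library exceeded the lowest 1.29-fold. DESeq2 marked 0 of the 10 as dispersion outliers, against 0.273% of 23106 genes, and limma called 0, against 0.00734%. With no filter on low counts edgeR called 0, against 0.424%. Without replicate 2, edgeR again called 0 of the 10, against 0.129% of 14003 genes. Runx3 (adjusted p = 0.683) and Runx1 (adjusted p = 0.87) then had an unadjusted p under 0.05, against 784 of the 14003 genes.

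The coefficients of variation ran from 2.87% for Kat5 to 12.4% for Runx1. Against genes of like level, 6 of the 10 lay above the median and 4 below it. Those of Runx1 (12.4%), Cbfb (11.8%), Usp7 (10.2%), Runx3 (9.58%), Foxp1 (9.28%) and Foxp3 (6.21%) were above the median of protein-coding genes of like level, from 0.8 times theirs to the inverse of that, (7.23%, 5.85%, 5.84%, 6.30%, 6.53% and 5.21% in that order). Those of Runx2 (10.1%), Foxp4 (5.56%), Stub1 (3.91%) and Kat5 (2.87%) were below it (26.0%, 5.87%, 5.97% and 6.23%). For Runx2, counting error alone would give 7.95% of the 10.1% found. For the other 9 genes counting error was between 0.524% and 1.77%.

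The libraries did not shift the 10 genes alike. Replicate 2 was the highest library for Runx1, Cbfb, Foxp1 and Usp7, and the lowest for Foxp3, Foxp4, Kat5 and Stub1. Among protein-coding genes at 1 TPM or more in every library, 43.8% were highest in replicate 2 and 28.9% were lowest there. Replicate 1 was the highest library for the other 6 of the 10 genes and the lowest for 0, against 24.1% and 22.4% of those protein-coding genes. Replicate 3 was the lowest for 5 and the highest for 0, against 32.7% and 14.4%, and replicate 4 the lowest for 1 and the highest for 0, against 16% and 17.7%. The first 4 genes have longest transcripts of 42.5% to 46.4% G and C, and the second 4 of 54.7% to 63.4%. The median over protein-coding genes at 1 TPM or more in every library was 49.7%. Of the 6 genes above it, 4 were lowest and 0 highest in replicate 2, where 47.0% of those protein-coding genes above it were lowest. All 4 genes below that median were highest in replicate 2, as were 67.9% of such genes.

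The GC trend was taken over the 10640 protein-coding genes at 1 TPM or more in every library. The log2 deviation of replicate 2 from each gene's mean fell with GC content (Pearson r = -0.48 across genes, which are not independent replicates). Its median went from 0.18 in the fifth of genes poorest in GC to -0.08 in the fifth richest in it. In the other libraries r was 0.34, 0.19 and 0.13. Each deviation is taken from the gene's own mean, so a fall in replicate 2 by itself requires a net rise over the other libraries. When the GC and length dependence of every library was subtracted, an alternative chosen after seeing the data, the coefficient of variation fell to 5.11% for Cbfb, 4.88% for Usp7, 3.86% for Foxp1, 2.43% for Foxp4 and 0.648% for Kat5. Foxp3 went from 6.21% to 4.28% and stayed lowest in replicate 2, at 419.5 TPM against 452 to 461 in the others. Runx3 hardly moved, from 9.58% to 9.32%, with replicate 3 still lowest at 65.4 TPM, and Runx1 was at 8.69%. Replicate 2 was then the highest library for Cbfb, Usp7, Runx3 and Stub1 and the lowest for Foxp3 and Foxp4, against 31.8% and 33.6% of all these genes.

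**Figure D4:**
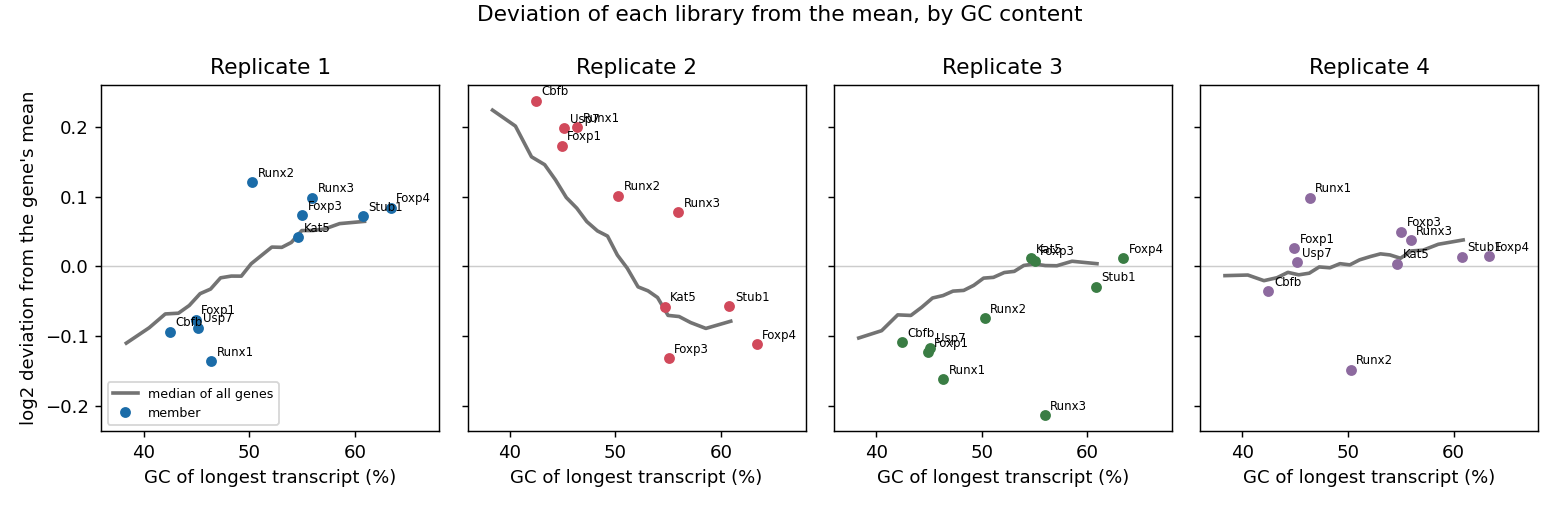
Deviation of each library from the mean of the gene (log2) against the GC content of its longest transcript, for the 10 genes (points). The grey line is the median, in 20 bins of GC content, of protein-coding genes at 1 TPM or more in every library. In replicate 2 the line falls, and Runx3 (0.08) and Runx2 (0.10) lie above their means where the line is at -0.07 and 0.02. Runx3 in replicate 3 lies 0.21 below its mean where the line is near 0.

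The genes whose levels were most like those of Foxp3, by the root mean square difference of log2(TPM + 0.1) over the 4 libraries among 10639 protein-coding genes, were Tkt (0.024), Csk (0.041), Psmb4 (0.045), Itgal (0.046) and Noc2l (0.052). Tkt, which encodes transketolase of the pentose phosphate pathway, was at 480, 410, 462 and 463 TPM in replicates 1 to 4. All 5 were lowest in replicate 2, as Foxp3 was, which choosing them by their likeness to Foxp3 in each library favours.

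Other genes of the pathway were read from lists, none of whose tested genes was called for spread between libraries. As the background for each list, 48.9%, 37.3% and 8.84% of protein-coding genes were at 1, 10 and 100 TPM or more in every library. All 18 nuclear partners of Foxp3 protein were at 10 TPM or more in every library and 12 at 100 TPM or more, with a median of 138 TPM, against 1.04 TPM over all protein-coding genes and 32.5 TPM over those at 1 TPM or more in every library. The highest were Irf4 (786 ± 42.6 TPM; SD, n = 4), a factor induced by the antigen receptor, the chromatin remodeller Chd4 (436 ± 17.2 TPM) and Ikzf1 (301 ± 16.8 TPM). The lowest were Rora (20.5 ± 2.51 TPM) and Satb1 (11.6 ± 1.09 TPM).

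Of 21 further enzymes that modify Foxp3 protein, 18 reached 10 TPM in every library, with a median of 47.7 TPM. The phosphatase gene Ppp1ca was at 1332 ± 61.2 TPM (SD, n = 4), the deacetylase gene Hdac7 at 432 ± 24.5 TPM and the kinase gene Pim1 at 365 ± 25.1 TPM. Kat5, Usp7 and Stub1 all lay above the median of this list. The deubiquitinase gene Usp44 (0.212 ± 0.0639 TPM) and the deacetylase gene Hdac9 (0.0485 ± 0.0111 TPM) were lowest.

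All 26 regulators of the Foxp3 locus were at 10 TPM or more in every library, with a median of 80.0 TPM, led by Nr4a1 (965 ± 117 TPM; SD, n = 4), Nr4a3 (526 ± 45.3 TPM) and Tcf7 (449 ± 26.2 TPM). The DNA demethylase gene Tet2 (12.1 ± 0.745 TPM) was the second lowest, above Satb1.

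Of 14 Runx cofactors, 10 were at 10 TPM or more in every library, with a median of 34.7 TPM. Aes, of the Groucho corepressor family, was at 335 ± 18.0 TPM (SD, n = 4), the methyltransferase gene Prmt1 at 285 ± 17.7 TPM and Sin3a at 89.5 ± 4.58 TPM. Runx1t1 and Cbfa2t3, of the ETO corepressor family, had 0 counts in all 4 libraries, while Cbfa2t2 of the same family was at 18.3 ± 0.991 TPM. Of 9 genes that Runx factors act on in T cells, 4 reached 1 TPM in every library: Cd4 (656 ± 16.2 TPM), Zbtb7b (99.6 ± 6.03 TPM), which encodes the helper lineage factor ThPOK, Tbx21 (22.7 ± 5.23 TPM) and Eomes (3.34 TPM). Cd8a was at 0.243 ± 0.0456 TPM and Il4 at 0.0712 ± 0.0823 TPM.

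Of 17 genes that Foxp3 is known to raise, 16 were at 10 TPM or more in every library and 9 at 100 TPM or more, with a median of 124 TPM. The highest were Il2ra (2168 ± 242 TPM; SD, n = 4), Capg (1242 ± 117 TPM) and Tnfrsf18 (824 ± 122 TPM), and the lowest Plagl1 (11.4 ± 1.54 TPM) and Itgae (1.07 ± 0.193 TPM), the integrin gene that Runx3 also acts on. Of 7 genes that Foxp3 is known to repress, 3 were at 10 TPM or more and 0 at 100 TPM or more, with a median of 8.09 TPM. Of all protein-coding genes, 37.3% were at 10 TPM or more in every library and 8.84% at 100 TPM or more, with a median of 1.04 TPM. These 7 genes were thus not low against that background, though their median was under the 32.5 TPM of genes at 1 TPM or more in every library. Ptpn22 was their highest at 55.3 ± 7.32 TPM, and Ifng (0.720 ± 0.588 TPM) and Il4 their lowest. With no library that lacks Foxp3, these levels do not show what Foxp3 does to any of these genes.

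**Figure D5:**
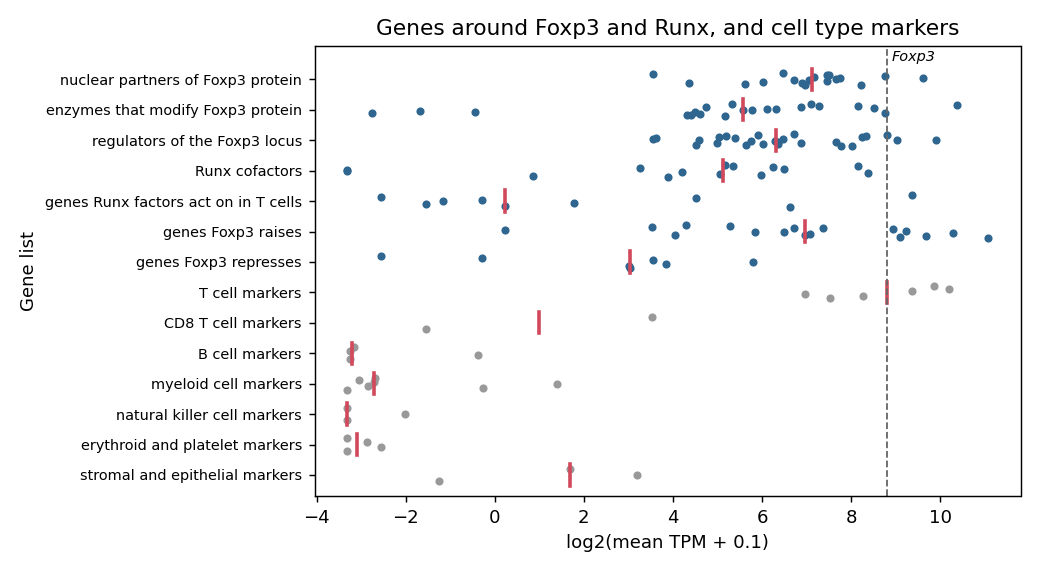
Mean level over the 4 libraries of every gene of each list as log2(TPM + 0.1), with the list median in red and the level of Foxp3 as a dashed line, pathway lists in blue and cell type markers in grey. Among the pathway lists, medians run from 8.09 TPM for genes that Foxp3 represses to 138 TPM for nuclear partners of Foxp3, except for the genes that Runx factors act on, at 1.07 TPM, and T cell markers have the highest of all medians, at 482 TPM.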

How the data were processed

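The authors deposited raw counts of fragments for each gene; per the file headers, featureCounts 1.4.6-p4 counted pairs mapped at both ends over GENCODE M13 exons on mm10, with strand setting 2. Aligner version and settings: not given in the sources used here. Merged exon lengths come with the counts. TPM was computed from counts divided by length over all 50600 genes, and 50376 identifiers matched a symbol with the version ignored. Gene types, transcripts and GC content came from GENCODE M21 and promoters from RefSeq on GRCm38.p6.

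Pairs were compared within libraries by the difference of log2(TPM + 0.1). Spread between libraries was fitted by edgeR 4.0.16 under R 4.3.3 (TMM, filterByExpr, intercept-only quasi-likelihood fit, robust prior, Benjamini-Hochberg, threshold 0.05), after checks on simulated counts, with DESeq2 1.42.0 and limma 3.58.1 as alternatives. Other alternatives were pseudocount 1, CPM, other lengths, other normalizations, no filter, thinning and leaving out each replicate. A count of 0 allows up to 3 counts per library. Counting error covers counting only, since PCR copies were not marked in the sources used here.

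The genes, pairs and lists were chosen with earlier results of these data known. Named genes are the 10 genes and Foxp2, the 3 highest and 2 lowest genes of each pathway list, the highest of a marker list, the 5 genes nearest Foxp3 in level, Xist, Eif2s3y and overlapping genes. Eomes, Lyz2, Epcam and Cbfa2t2 were added after their values were seen. Only results that touch the 10 genes are given.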

Additional observations from a re-analysis of the deposited data

Results flagged for a closer look

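Of 63 values checked for a library far from the other three (the gap to its nearest neighbour over the whole range, against Dixon's critical value for 4 libraries), 5 passed, where chance alone passes about 1 in 20. The difference between Foxp3 and Cbfb had a gap of 0.847 of its range, with 0.99 in replicate 2 against 1.44 to 1.52 in the others on the log2 scale. The share of Foxp3 in the summed Foxp TPM had a gap of 0.952, with 61.6% in replicate 2 against 63.5% to 63.6%. Hdac7 had a gap of 0.842, with 395 TPM in replicate 2 against 439 to 448 TPM. Zbtb7b had a gap of 0.836, with 109 TPM in replicate 4 against 95.2 to 97.4 TPM. Itgae had a gap of 0.896, with 1.36 TPM in replicate 4 against 0.959 to 1.00 TPM, from 157 counts or fewer per library. The part of GC content in these values was not tested.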

How the results depend on the processing

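All 16 pair differences kept their direction with a pseudocount of 1, with thinning to the smallest library, with the longest coding length and without any 1 replicate. By CPM, Usp7 minus Stub1 turned to 1.70 and Cbfb minus summed Runx genes to -0.25, and with the longest coding transcript Usp7 minus Stub1 turned to 0.30. Of the 16 pairs, 15 had the same sign in every library by CPM and 13 with the longest coding length. Foxp3 with Cbfb, whose mean log2 difference fell to 0.36 ± 0.25 with the coding length, was among the pairs that did not keep the same sign. The share of Runx3 was 51.9% by CPM, 54.4% with the longest coding length and 62.0% with the longest coding transcript, and that of Foxp3 49.2%, 61.0% and 56.0%; leaving out 1 replicate gave 70.6% to 72.2% and 62.9% to 63.6%. Neighbours with the same order in every library numbered 6 to 8 of 9 over all alternatives, but each length changed which genes were neighbours: Stub1, ranked 4 by TPM, was 8 by CPM and 5 with either coding measure, and Foxp1, ranked 8 by TPM, was 4 by CPM and with coding length and 6 with the coding transcript. None of the 10 genes was called for spread under any of 10 alternatives, where 0.00717% (without replicate 4) to 0.424% (no filter) of all genes were, and 5 were at 100 TPM or more in every library without any 1 replicate and under both other TPM scalings; by CPM 5 also were, with Foxp1 in place of Stub1. TPM over protein-coding genes only moved 4 of the 10 levels by more than 1 SD. With the GC and length trend removed, 6 in place of 8 genes were highest or lowest in replicate 2, with Stub1 turned from lowest to highest and Runx3 newly highest. Coding lengths from RefSeq proteins were not run, and lengths from GENCODE M21 were used in their place, chosen after seeing the data. No paired analysis was possible because the libraries form 1 group. Among the 10 genes, Runx2 had the fewest counts, 106 to 309; Foxp2, Il4, Ifng, Hdac9, Usp44 and Cd8a had 70 or fewer in every library.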
